A study of Mus musculus with 6 samples.

Results

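The genes that mark the layers of the cerebral cortex were examined in the RNA of whole brains of PLDP mice and control mice. They were the 9 genes Cux1, Cux2, Rasgrf2 and Rorb for the upper layers and Fezf2, Bcl11b, Tle4, Foxp2 and Tbr1 for the deep layers, chosen by symbol from the 60354 features that each count file lists. All 9 were found once by Ensembl identifier through GENCODE M21 (build GRCm38), and all 9 passed the filter on low counts. PLDP is a protease-treated decomposition product of porcine liver. PLDP mice (mice 17, 22 and 26) were male C57BL/6NCrSlc mice fed for 16 weeks a modified AIN-93M diet holding 20% PLDP, starting at an age of 16 weeks. Control mice (mice 2, 5 and 10) were males of the same strain and age fed for 16 weeks a modified AIN-93M diet without PLDP and with its calories adjusted. Brains of both groups were taken 1 day after a series of behavioral tests, during which no PLDP was given. The comparison asks whether long-term PLDP ingestion goes with a different level of these genes, and whether upper and deep layers differ in this.

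The cortex is built of stacked layers of neurons that are born in turn, the deep ones before the upper ones. Neurons of the upper layers mostly connect cortical areas with each other, and neurons of the deep layers mostly project to the thalamus, brainstem and spinal cord. During development, factors such as Fezf2, Bcl11b (also called Ctip2) and Tbr1 set these fates, partly by repressing each other's programs, and many of the genes stay on in the adult. Among the members, 7 encode transcription factors, Tle4 encodes a corepressor of the Groucho family that binds no DNA itself, and Rasgrf2 encodes an exchange factor that activates Ras proteins. None is limited to the cortex: Bcl11b is also a gene of striatal neurons, Foxp2 of striatum, thalamus and Purkinje cells, and Rorb of thalamus and retina. In whole-brain RNA the level of a gene therefore sums all regions, and fewer cells of a type and less RNA per cell cannot be told apart.

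Total counts were between 18797061 and 23938729 per mouse. The members held from 333 counts (Fezf2 in control mouse 10) to 2654 counts (Rasgrf2 in control mouse 5) in a mouse, so that counting alone gives a coefficient of variation of 2.09% for Rasgrf2 and 5.08% for Fezf2, the least counted member. PLDP mouse 17 stood apart from the other PLDP mice over all features tested: the chi-square per degree of freedom was 5.35 and 5.0 against mice 22 and 26, but 2.43 between mice 22 and 26 and 2.35 to 3.1 between control mice. Counts are given below as CPM, the counts per 1000000 counts of the TMM-scaled library. A gene is called higher or lower in PLDP mice at an unadjusted p under 0.05 in edgeR's quasi-likelihood test.

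Rorb, Rasgrf2 and Tle4 are the members whose 250 bases before the RefSeq start hold no exon of any gene in GENCODE M21. Rorb had the highest fold change of the 9 members and Rasgrf2 and Tle4 the 2 lowest, and their upstream sequences are shown to set both sides next to each other. They come from RefSeq (GRCm38.p6), are on the minus strand at chr19:19111197-19111446, chr13:92131829-92132078 and chr19:14598184-14598433, and end at the base before the start. Capitals mark 3 motifs that were searched on both strands, namely the GC box with the letters GGGCGG, the box with the letters CCAAT, and the core of a cyclic AMP response element with the letters TGACG.
Rorb: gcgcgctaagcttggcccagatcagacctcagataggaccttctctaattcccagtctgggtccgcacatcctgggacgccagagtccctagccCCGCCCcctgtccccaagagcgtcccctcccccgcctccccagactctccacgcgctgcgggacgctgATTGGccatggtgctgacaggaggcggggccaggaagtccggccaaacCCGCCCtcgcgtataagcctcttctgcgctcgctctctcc
Rasgrf2: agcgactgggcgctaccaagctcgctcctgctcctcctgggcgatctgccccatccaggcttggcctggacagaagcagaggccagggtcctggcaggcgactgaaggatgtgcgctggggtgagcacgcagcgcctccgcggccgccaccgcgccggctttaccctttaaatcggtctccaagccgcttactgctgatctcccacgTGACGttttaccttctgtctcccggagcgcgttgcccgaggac
Tle4: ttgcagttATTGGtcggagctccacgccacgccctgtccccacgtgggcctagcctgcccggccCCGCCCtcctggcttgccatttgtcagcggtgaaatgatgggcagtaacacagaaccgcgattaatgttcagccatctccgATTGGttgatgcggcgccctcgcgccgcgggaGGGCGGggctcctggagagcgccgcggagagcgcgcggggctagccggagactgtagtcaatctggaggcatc
GGGCGG was found at 2 places in Rorb and 2 in Tle4, CCAAT at 1 place in Rorb and 2 in Tle4, and TGACG at 1 place in Rasgrf2. GGGCGG is held by 35.7%, CCAAT by 37.4% and TGACG by 20.8% of the 32851 windows of 300 bases around RefSeq starts. Rorb and Tle4 shared both frequent motifs. Rorb was called higher and Tle4 was not called in the comparison of the diets, and a link between motifs and fold changes was not tested. The other motifs searched were the AP-1 site with the letters TGANTCA (held by 7.81% of all windows), the TATA box with the letters TATAAA (13.6%), and motifs known for the families of the members themselves. The latter were ATCGAT for Cut homeodomain proteins (0.925%), AGGTCA for ROR receptors (16.3%), GTAAACA for forkhead proteins (3.65%) and AGGTGTGA for T-box proteins (1.28%). None of these was found in the 3 sequences.

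The windows of the other members that have one (Cux1, Cux2, Fezf2, Bcl11b and Tbr1) overlap an exon of the member itself and are not printed. Over the full windows of 300 bases, the GC content was 80.3% in Cux2, 63.7% in Rorb, 61.3% in Fezf2 and 43.0% in Bcl11b, against a median of 52.7% over all windows. It was 65.0% in Cux1 and in Tle4, 66.0% in Rasgrf2 and 46.0% in Tbr1, which were not called, so the called and the other members overlapped. The window of Cux2 held 48 CpG, that of Bcl11b 9, and the median window 7. Of all windows, 99.1% had a lower GC content than that of Cux2 and 16.5% a lower one than that of Bcl11b.

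Of the 9 members, 4 were called higher in PLDP mice, namely the upper-layer genes Cux2 and Rorb and the deep-layer genes Fezf2 and Bcl11b, and 0 were called lower. The call rates over all 18580 features tested were 4.91% for higher and 3.69% for lower. The fold changes were small, between 9.87% for Cux2 and 17.1% for Rorb. None of the 9 passed at an adjusted p under 0.05 (edgeR's quasi-likelihood test, Benjamini-Hochberg over all features tested, with 0.406 for Bcl11b as the smallest), and DESeq2 likewise called 4 at an unadjusted p. The median log2 fold change of the 9 was 0.056, with 6 above 0, against a median of -0.00062 over all features tested, of which 49.8% were above 0. The 3 PLDP mice all lay above the 3 control mice for 3 members (Cux2, Fezf2 and Bcl11b), as they did for 7.29% of all features, and all below for 0 members, as for 6.9% of all features. Leaving out 1 mouse changed these calls: without PLDP mouse 26 only Fezf2 was called higher (1 member), without PLDP mouse 22 only Rorb and Bcl11b (2), without control mouse 10 only Fezf2 and Bcl11b (2), and without control mouse 2 all but Rorb (3). Without PLDP mouse 17, which stood apart, the same 4 were called, and likewise without control mouse 5. Scaled to cortical identity genes (below), only Fezf2 was called higher (1), and Rasgrf2 and Tle4 were called lower (2).

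**Figure D1:**
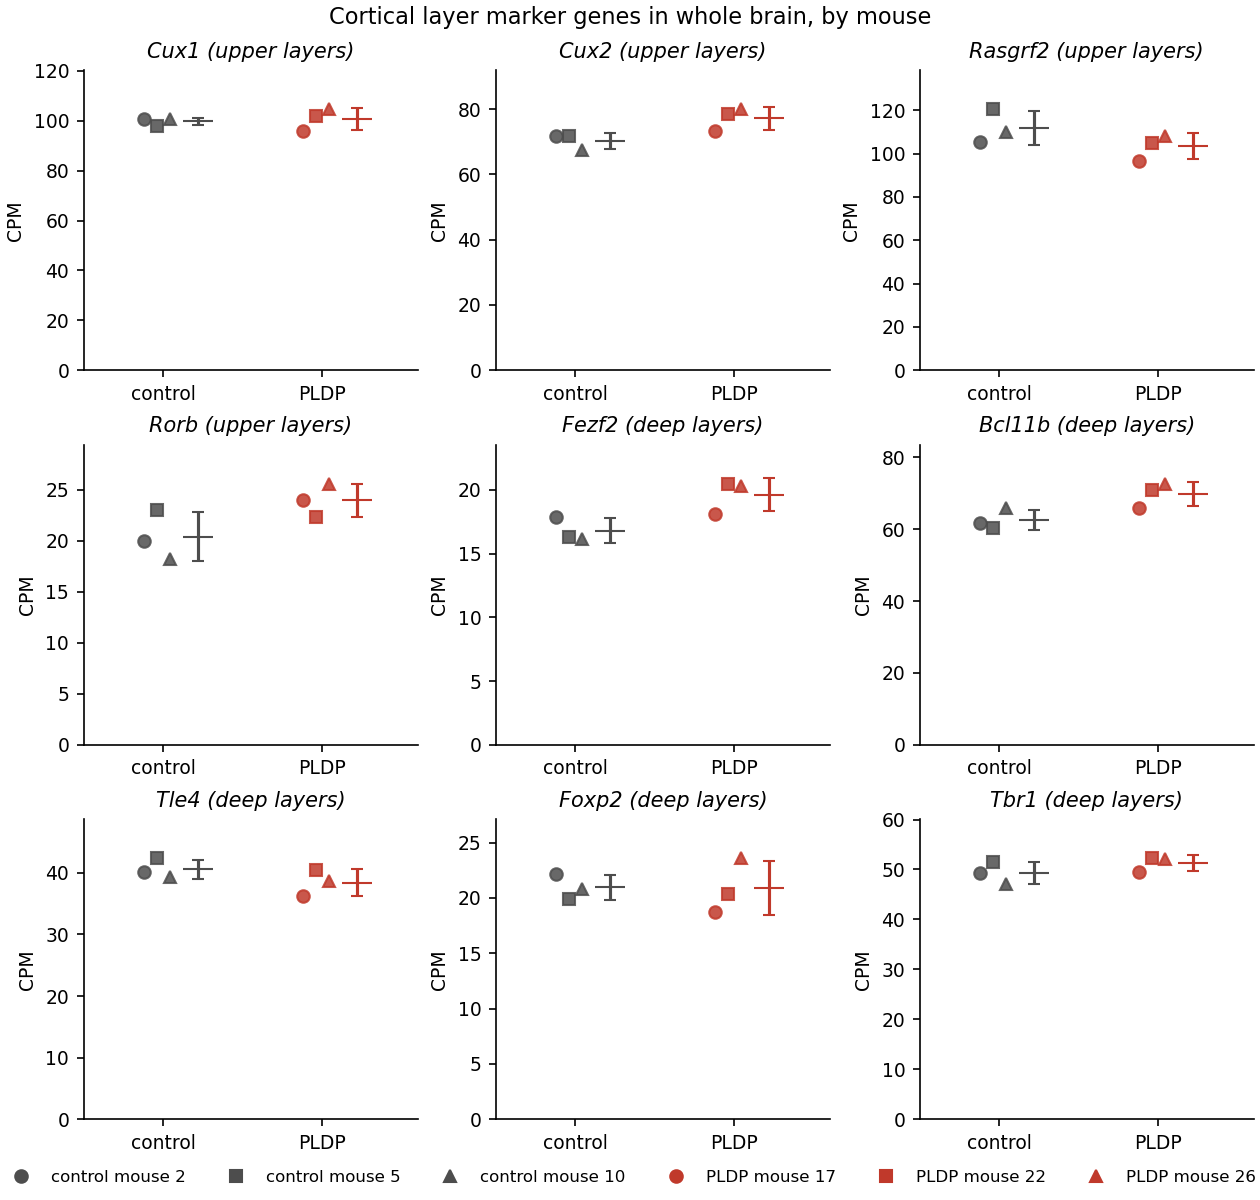
Level of each member in every mouse, in CPM (vertical axis, from 0) by diet (horizontal axis). Symbols are single mice and the bars beside them give the mean and SD of the 3 mice of a diet; the PLDP mice lie above all control mice for Cux2, Fezf2 and Bcl11b, where the means are 70.3 and 77.3, 16.8 and 19.6, and 62.6 and 69.8 CPM.

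Among the upper-layer genes, Cux1 and Cux2 are a pair of homeodomain proteins with CUT repeats that shape dendrites and spines of upper-layer neurons. Cux2 (ENSMUSG00000042589, chr5:121856366-122050102, minus strand) stood at 71.8, 71.7 and 67.4 CPM in control mice 2, 5 and 10, and at 73.3, 78.7 and 80.0 CPM in PLDP mice 17, 22 and 26. The lowest PLDP mouse, mouse 17, was close to the highest control mouse, and the other PLDP mice were clearly above. The means ± SD were 70.3 ± 2.52 CPM in 3 control mice and 77.3 ± 3.54 CPM in 3 PLDP mice. A log2 fold change of 0.14 ± 0.051 (standard error) with a 95% interval from 0.028 to 0.24 was called, with an adjusted p = 0.448 in edgeR.

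Cux1 (ENSMUSG00000029705, chr5:136248135-136567490, minus strand) stood at 100.6, 98.0 and 100.7 CPM in control mice and at 95.8, 102 and 104.6 CPM in PLDP mice. The PLDP mice lay on both sides of the control mice, which were within 3 CPM of each other. Its log2 fold change was 0.015 ± 0.046, with a 95% interval from -0.083 to 0.11 (adjusted p = 0.962 in edgeR), so that changes beyond -5.61% or 8.11% lie outside the interval. The Cux1 locus also makes the Golgi protein CASP from some of the same exons, and counts per gene cannot separate the products. There are 4 other genes that overlap Cux1, with at most 7 counts in a mouse.

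The ratio of Cux2 to Cux1 does not depend on library size. It was 0.714, 0.732 and 0.669 in control mice and 0.765, 0.771 and 0.764 in PLDP mice. The PLDP mice were thus all above the control mice and nearly equal to each other (0.767 ± 0.00348 against 0.705 ± 0.0323, SD, n = 3 each).

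Rorb (ENSMUSG00000036192, chr19:18930605-19111196, minus strand) encodes a nuclear receptor of layer 4, the layer that receives thalamic input. It stood at 19.9, 23.0 and 18.2 CPM in control mice and at 24.0, 22.3 and 25.6 CPM in PLDP mice. The diets overlapped, since control mouse 5 was above PLDP mouse 22. Its log2 fold change of 0.23 ± 0.086 (95% interval 0.046 to 0.41) was the highest of the 9 and was called, with an adjusted p = 0.45 in edgeR. The control mice varied by 11.9% (coefficient of variation), against 4.61% from counting alone. The log2 fold change was 0.32 without control mouse 5 and 0.15 without control mouse 10, which had the highest and the lowest control level, and the second was not called.

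Rasgrf2 (ENSMUSG00000021708, chr13:91880400-92131656, minus strand) marks neurons of layers 2 and 3. It stood at 105.3, 120.4 and 110.0 CPM in control mice and at 96.6, 105.0 and 108.3 CPM in PLDP mice. One PLDP mouse, mouse 26, was above the lowest control mouse. Its log2 fold change was -0.12 ± 0.055, with a 95% interval from -0.23 to 0.0011, and just missed the call (adjusted p = 0.583 in edgeR). It was the only upper-layer member with a negative fold change. It came to be called lower without control mouse 2 (-0.16) and without PLDP mouse 26 (-0.15), and was at -0.06 without control mouse 5 and -0.07 without PLDP mouse 17.

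Among the deep-layer genes, Fezf2 and Bcl11b act in 1 pathway: Fezf2 is the zinc finger factor that specifies subcortical projection neurons of layer 5, and Bcl11b is the zinc finger factor downstream of it that guides their axons to the spinal cord. Fezf2 (ENSMUSG00000021743, chr14:12342094-12348189, minus strand) stood at 17.9, 16.3 and 16.1 CPM in control mice and at 18.1, 20.5 and 20.3 CPM in PLDP mice. All PLDP mice were above all control mice, with PLDP mouse 17 just above control mouse 2. The log2 fold change was 0.22 ± 0.08, with a 95% interval from 0.056 to 0.39 (adjusted p = 0.436 in edgeR). Fezf2 and Bcl11b each kept their call in 5 of the 6 fits that leave out a mouse, and Cux2 and Rorb each in 3. Fezf2 lost its call without PLDP mouse 22 (0.19, with a standard error of 0.091).

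Bcl11b (ENSMUSG00000048251, chr12:107910403-108003602, minus strand) stood at 61.6, 60.4 and 65.8 CPM in control mice and at 66.0, 70.8 and 72.6 CPM in PLDP mice. The diets did not overlap, although PLDP mouse 17 and control mouse 10 differed by less than 1 CPM. Its log2 fold change was 0.16 ± 0.054, with a 95% interval from 0.044 to 0.27 and the smallest p of the members (adjusted p = 0.406 in edgeR). It lost its call without PLDP mouse 26 (0.13), and without control mouse 5 (0.13) it was only just called. Bcl11b is also expressed in striatal projection neurons, so the striatal list below was measured beside it.

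Tbr1 (ENSMUSG00000035033, chr2:61802930-61814114, plus strand) is the T-box factor of layer 6 that represses Fezf2 and Bcl11b there. It stood at 49.3, 51.5 and 47.2 CPM in control mice and at 49.6, 52.2 and 52.2 CPM in PLDP mice. The diets overlapped, with a log2 fold change of 0.056 ± 0.054 and a 95% interval from -0.057 to 0.17 (adjusted p = 0.821 in edgeR). The interval holds the fold change of Cux2. The value was 0.0244 without control mouse 10, 0.0881 without control mouse 5 and 0.0046 with the cortical scaling, and Tbr1 was also the median member in these fits.

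Tle4 (ENSMUSG00000024642, chr19:14448150-14598051, minus strand), a corepressor of corticothalamic neurons, stood at 40.1, 42.3 and 39.3 CPM in control mice and at 36.2, 40.4 and 38.6 CPM in PLDP mice. PLDP mouse 22 was within the range of the control mice, and the other PLDP mice were below it. The log2 fold change was -0.079 ± 0.06, with a 95% interval from -0.21 to 0.048 (adjusted p = 0.758 in edgeR). It was -0.0363 without PLDP mouse 17, -0.0474 without control mouse 5 and -0.1208 without PLDP mouse 22, and not called in any of these. Foxp2 (ENSMUSG00000029563, chr6:14901349-15441977, plus strand), a forkhead factor of layer 6 known for its part in vocal learning, stood at 22.1, 19.9 and 20.8 CPM in control mice and at 18.7, 20.4 and 23.6 CPM in PLDP mice. The PLDP mice spanned the control range on both sides, with a coefficient of variation of 11.8% against 4.75% from counting. The log2 fold change of Foxp2 was -0.0076 ± 0.085, and its 95% interval from -0.19 to 0.17 is the widest of the members after that of Rorb.

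**Figure D2:**
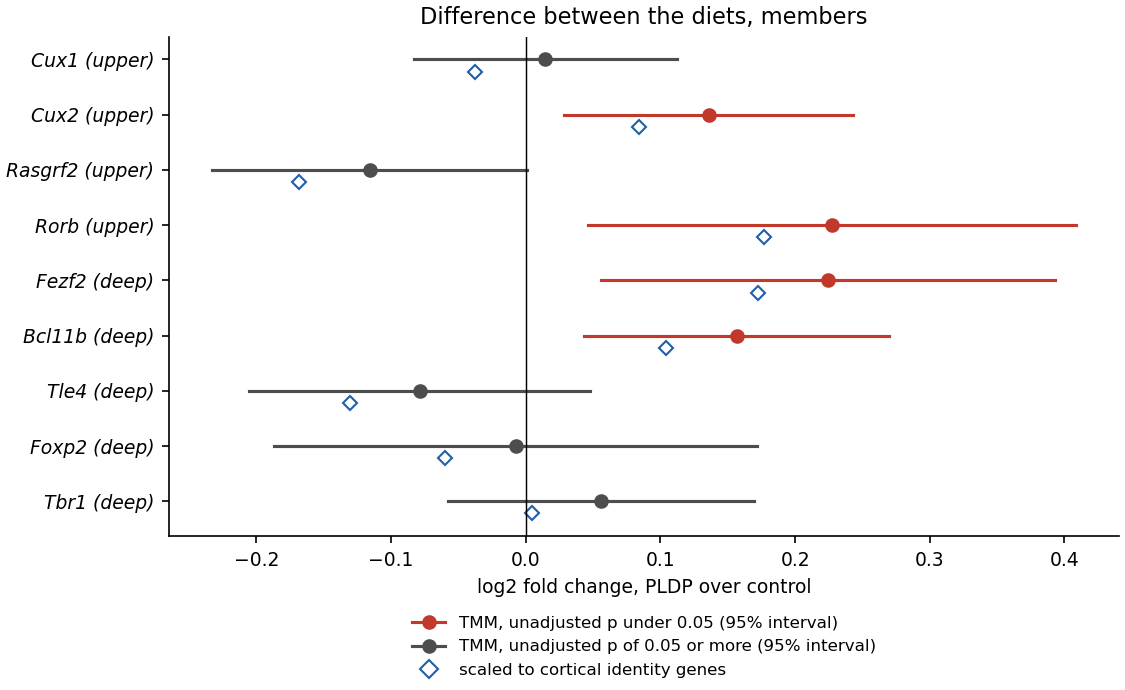
Log2 fold change of each member, PLDP over control (horizontal axis), with its 95% interval from edgeR's quasi-likelihood test (circles and lines; red where the unadjusted p is under 0.05), and the value after scaling to 15 cortical identity genes (open diamonds). Cux2, Rorb, Fezf2 and Bcl11b lie above 0 with their whole interval, and all 9 values move by about 0.05 to the left under the cortical scaling.

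Upper and deep layers were then set against each other within each mouse, as the mean log2 CPM of the 4 upper-layer members minus that of the 5 deep-layer members, a difference that library scaling cannot move. It was 0.858, 0.984 and 0.866 in control mice and 0.937, 0.863 and 0.904 in PLDP mice. The PLDP mice lay within the range of the control mice, and the means were 0.903 ± 0.07 and 0.901 ± 0.037 (SD, n = 3 each). The difference between the diets was -0.002 with a pooled SD of 0.056, and no test was run on this score of chosen genes. The mean log2 CPM itself was 0.068 higher in PLDP mice for the upper and 0.07 higher for the deep layers, both with overlapping diets and each close to 1 pooled SD (0.065 and 0.062). Each layer group held 2 called members, of 4 upper-layer and of 5 deep-layer members, and the medians of log2 fold change were 0.075 and 0.056. The near-equality of the layers in the mean log2 CPM was a sum of members that differed: the upper-minus-deep difference became 0.059 when Rasgrf2 was left out and -0.058 when Rorb was. It also depended on equal weights. By summed CPM, upper over deep was lower in every PLDP mouse than in every control mouse. The upper sums were 297.6, 313.1 and 296.4 CPM in control mice and 289.6, 308.0 and 318.4 CPM in PLDP mice. The deep sums were 191.0, 190.4 and 189.3 CPM against 188.6, 204.3 and 207.2 CPM. How often sums of other genes part in this way was not counted.

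**Figure D3:**
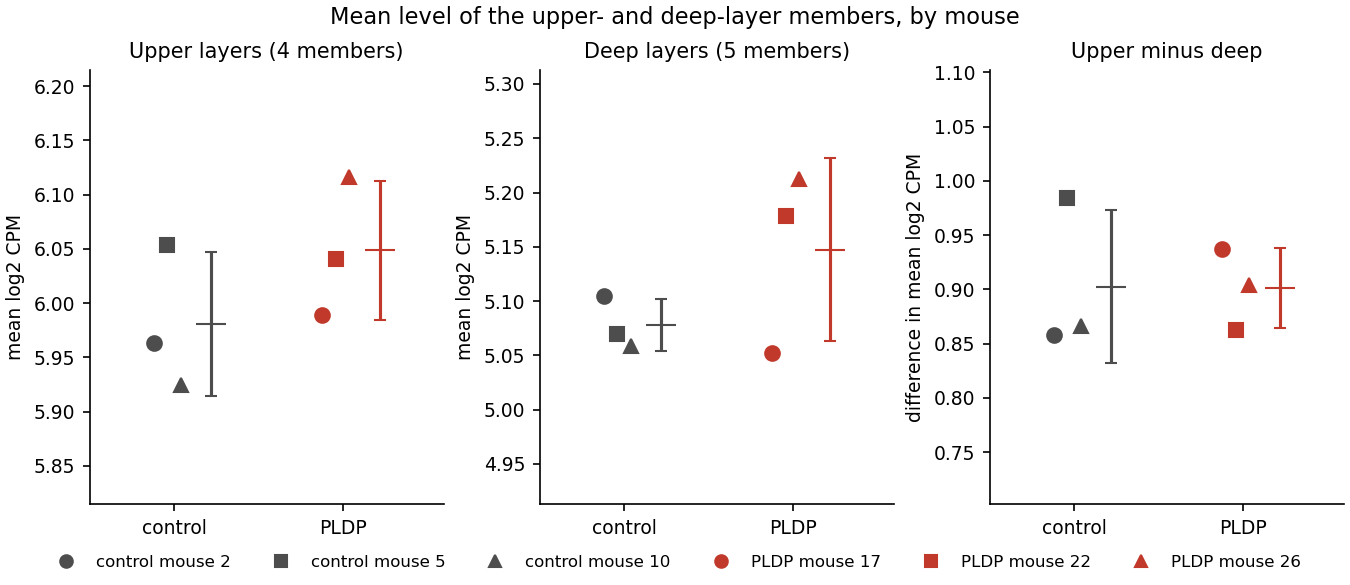
Mean log2 CPM of the upper-layer members, of the deep-layer members, and their difference (vertical axes, each spanning 0.4 log2 units) in every mouse, by diet; bars give mean and SD of 3 mice. In the difference, control mouse 5 is highest at 0.984 and the 3 PLDP mice lie between 0.863 and 0.937.

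Ratios between members within a mouse also need no scaling. Among the 36 pairs of members, the ratios of PLDP mice and control mice did not overlap for 17. The same holds for 13.4% of all pairs of tested features with a count in every mouse. They were apart for 14 of the 20 pairs of a called with an uncalled member, for 3 of the 10 pairs of uncalled members, and for 0 of the 6 pairs of called members, a split that follows in part from how calls were made. By layer, they were apart for 8 of the 20 upper-deep pairs, for 4 of the 6 upper-upper pairs and for 5 of the 10 deep-deep pairs. The pairs share genes and are not independent. Fezf2 over Tle4 was 0.447, 0.386 and 0.411 in control mice and 0.501, 0.506 and 0.524 in PLDP mice, with every PLDP mouse higher. Rorb over Rasgrf2 was 0.189, 0.191 and 0.166 in control mice and 0.248, 0.212 and 0.236 in PLDP mice, again with every PLDP mouse higher. Both of these pairs set the highest fold change of a layer group over the lowest. Their separation therefore follows in large part from that choice and is no further support. Cux2 over Bcl11b, an upper with a deep member, overlapped at 1.17, 1.19 and 1.03 against 1.11, 1.11 and 1.1.

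Per kilobase of exon, in control mice, Rasgrf2 had the highest level (12.1 ± 0.839 CPM per kilobase), followed by Tbr1 (8.99 ± 0.392), Bcl11b (7.72 ± 0.345), Tle4 (7.12 ± 0.274), Cux2 (6.97 ± 0.25), Fezf2 (5.51 ± 0.315), Cux1 (4.98 ± 0.077), Rorb (1.84 ± 0.218) and Foxp2 (1.28 ± 0.0693; SD, n = 3). Over all 6 mice Cux2 ranked above Tle4, but the ranges of Tbr1, Bcl11b, Cux2, Tle4 and Fezf2 each overlapped with the next. The ranges were apart between Rasgrf2 and Tbr1, Fezf2 and Cux1, Cux1 and Rorb, and Rorb and Foxp2. Long exons, as in Cux1 (20.02 kilobases over all annotated isoforms), lower this measure where an isoform uses few of them.

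Other layer markers of a list of 18 upper-layer and 20 deep-layer genes were read from the same fit. The shares to set beside the counts of this and every list below are those over all features tested, 4.91% called higher and 3.69% called lower. In such short lists a single gene moves the share by several percent. Of the other upper-layer genes 2 were called higher (11.1%), Rspo1 and Inhba, and 1 lower (5.56%), the POU factor Pou3f2. Their median log2 fold change was -0.007, but it lay above 0 without PLDP mouse 17 (0.035), PLDP mouse 26 (0.0128), control mouse 2 (0.0209) or control mouse 5 (0.00179), and was -0.0588 with the cortical scaling described below. Rspo1, a secreted activator of Wnt signaling, stood at 4.91, 5.81 and 4.75 CPM in control mice and 6.83, 6.16 and 7.59 CPM in PLDP mice, a log2 fold change of 0.40 ± 0.13. Inhba, a subunit of activin, had a log2 fold change of 0.35 ± 0.13, and PLDP mouse 17 (9.67 CPM) was below all control mice. Pou3f2 had -0.20 ± 0.079, with all PLDP mice (17.6 to 20.8 CPM) below all control mice (21.1 to 23.1 CPM). Without PLDP mouse 22 or 26 there was 1 higher, and without control mouse 5 or 10 there were 0 lower. Of the other deep-layer genes 3 were called higher and 0 lower, with a median of 0.049. They were Sox5, a factor of deep-layer neurons that represses Fezf2 in subplate and layer 6 (0.19 ± 0.067), Hs3st4, a heparan sulfate sulfotransferase of layer 6 (0.12 ± 0.051), and Etv1, an ETS factor of layer 5 (0.11 ± 0.048). Without PLDP mouse 17 the deep-layer count was 5, and without control mouse 2, PLDP mouse 22 or PLDP mouse 26 it was 1, while 1 gene was called lower without PLDP mouse 17, 22 or 26. The deep-layer count of higher genes was 1 in DESeq2 and 0 with the cortical scaling, where its median was -0.00359.

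Genes that cortical development studies place upstream, downstream or beside the members (24 genes) held 7 called higher (29.2%) and 1 lower (4.17%), with a median of 0.042, which was 0.0742 without PLDP mouse 17, 0.0698 without PLDP mouse 26 and -0.0095 with the cortical scaling. The 4 with the smallest p were Grin2b, an NMDA receptor subunit and target of Tbr1 (0.19 ± 0.054), Sox11, an SRY-box factor of new neurons (0.28 ± 0.092), Cyp26b1, which breaks down retinoic acid (0.25 ± 0.082), and Sox5 again. Id2, an inhibitor of bHLH factors, was lower at -0.12 ± 0.045, with 78.0 to 81.9 CPM in PLDP mice and 85.7 to 87.8 CPM in control mice. Without control mouse 5, and likewise with the cortical scaling, the count of higher genes was 3, and lower were 0 without control mouse 2 or PLDP mouse 22 and 2 without PLDP mouse 17. Among the closest relatives of the members, 14 were tested and 1 was called higher, Eomes (0.22 ± 0.098), a T-box relative of Tbr1 that is also in the partner and olfactory bulb lists. It was no longer called without control mouse 5 or PLDP mouse 22, which left 0, nor in DESeq2 or with the cortical scaling (0 in each), and without PLDP mouse 17 or 26 there were 2. Bcl11a, the relative of Bcl11b, had -0.012 ± 0.051, and Foxp1, Rora and Tle1 to Tle3 were not called. The summed level of the relatives was 1403 to 1436 CPM in control mice and 1454 to 1478 CPM in PLDP mice, without overlap.

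**Figure D4:**
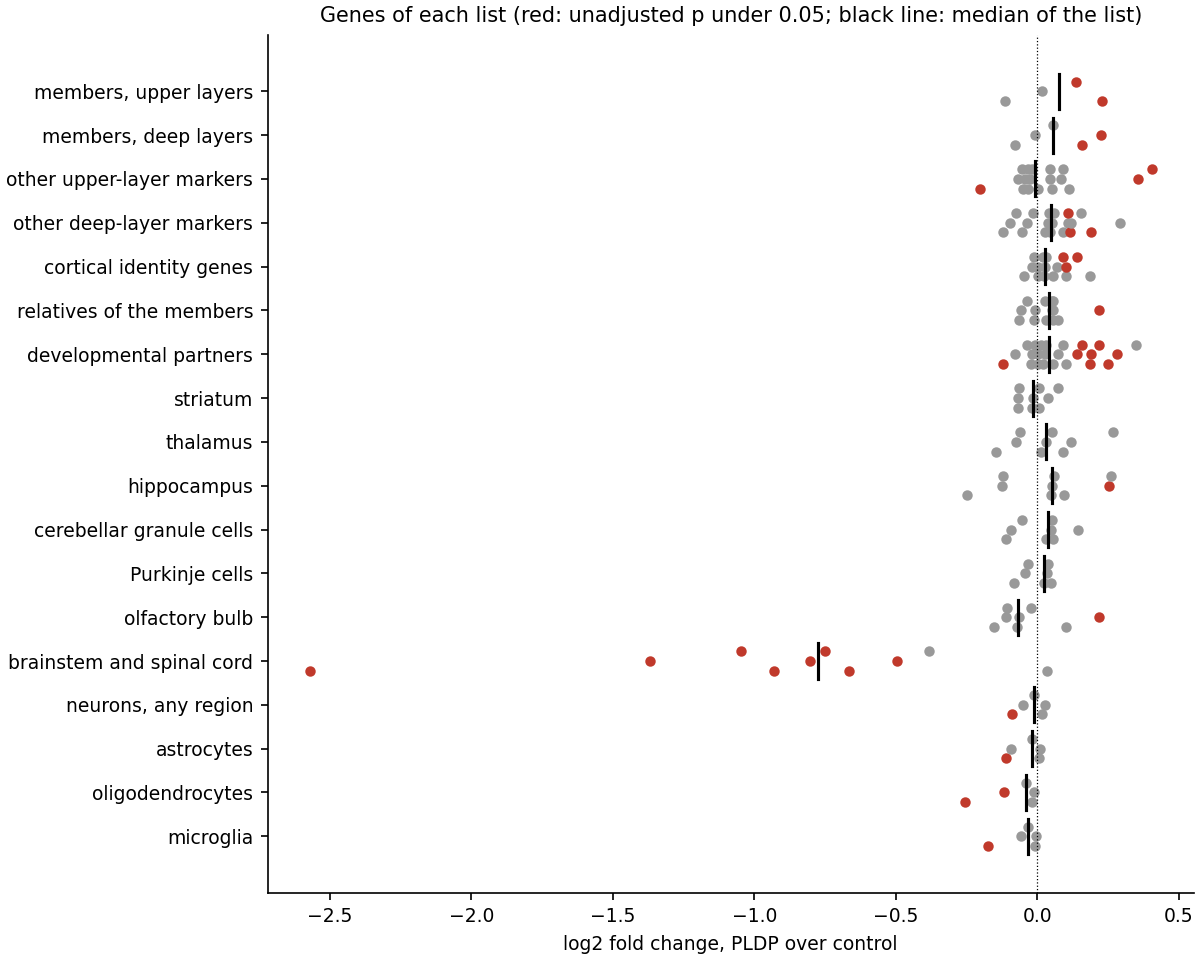
Log2 fold change, PLDP over control (horizontal axis), of every tested gene of the members and of the 16 other lists, 1 list a line; red points have an unadjusted p under 0.05 in edgeR and the black line is the median of a list. Most lists lie around 0, the members' medians are 0.075 and 0.056, and the brainstem and spinal cord list lies to the left with a median of -0.777.

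Markers of regions and cell types moved with the diets in part, and their share in the differences of the members was not tested. Of 16 genes of cortical and hippocampal excitatory neurons, 3 were called higher (Camk2a, 0.10 ± 0.032, Neurod2, 0.14 ± 0.052, and Nrgn, 0.091 ± 0.039) and 0 lower. Their summed level was 4134 to 4245 CPM in control mice and 4401 to 4478 CPM in PLDP mice, without overlap, and none was at 0. Camk2a, Nrgn and Slc17a7 made up most of this sum. When libraries were scaled to the geometric mean of these genes (without Bcl11a), the fold changes were 0.084 for Cux2, 0.18 for Rorb, 0.17 for Fezf2 and 0.10 for Bcl11b on the log2 scale. Of these only Fezf2 stayed called higher, and Rasgrf2 (-0.17) and Tle4 (-0.13) came to be called lower. This scaling also turned the split of calls over all features from 913 higher and 685 lower to 360 higher and 1882 lower, and the median of all features to -0.052.

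Of 10 brainstem and spinal cord genes 8 were called lower and 0 higher, with a median of -0.777, which was -0.51 without PLDP mouse 22 and -1.06 without PLDP mouse 17. Slc6a5, the glycine transporter of inhibitory neurons, was at -0.66 ± 0.10 with an adjusted p of 0.0369, and Glra1, a glycine receptor subunit, at -0.50 ± 0.086 with an adjusted p of 0.0592 in edgeR. Their summed level was 153.8 to 170.0 CPM in control mice and 82.9 to 122.1 CPM in PLDP mice, lowest in PLDP mouse 22, and Hoxb8 was at 0 in PLDP mice 22 and 26. Without control mouse 2, and likewise in DESeq2, the count was 5. Among the PLDP mice the sum was highest in mouse 17 (122.1 CPM), where 8 of the 9 members, called or not, had their lowest PLDP level. Rorb had its lowest in mouse 22. The share of all features with their lowest PLDP level in mouse 17 was not counted. Mouse 17 also stood apart from the other PLDP mice over all features tested, so this count cannot be read as a trait of the members. Among the control mice the sum was highest in mouse 2 (170.0 CPM), where only Rasgrf2 had its lowest control level, and Cux2, Fezf2 and Foxp2 had their highest.

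Lists of other regions showed few calls. Genes of the striatum, which also expresses Bcl11b and Foxp2, had 0 of 9 called in either direction, with Drd1 at -0.015 ± 0.078, Drd2 at 0.037 ± 0.091, and summed levels of 781.3 to 832.2 CPM in control and 775.6 to 828.7 CPM in PLDP mice. Genes of the thalamus, which also expresses Rorb and Foxp2, had 0 of 9 called (Tcf7l2, 0.013 ± 0.094, and Prkcd, 0.12 ± 0.072), but 4 higher and 1 lower without PLDP mouse 17, and 1 lower without PLDP mouse 22 or 26. Purkinje cell genes had 0 of 7 (Pcp2, 0.039 ± 0.064, and Car8, 0.034 ± 0.067) and cerebellar granule cell genes 0 of 8 (Gabra6, -0.054 ± 0.089, and Cbln3, -0.093 ± 0.082). Of 9 hippocampal genes 1 was called higher, the zinc finger gene Zbtb20 (0.25 ± 0.068), while Prox1 and Wfs1 were at 0.096 ± 0.065 and 0.048 ± 0.052. Of 8 olfactory bulb genes only Eomes was called, and Cdhr1 was at -0.022 ± 0.099, with 3 called lower without PLDP mouse 22. Left-out mice gave at most 2 calls for granule cell genes and at most 1 for Purkinje cell and striatal genes. With no filter, 1 thalamic gene was called higher and 1 lower, and 1 granule cell gene higher and 2 lower. With the cortical scaling 1 thalamic and 1 granule cell gene were called lower, and limma voom and upper-quartile factors each called 1 granule cell gene higher.

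Cell type markers had 0 called higher in each of 4 lists. Lower were 1 of 5 neuronal genes (Nefl, -0.091 ± 0.035, while Snap25 and Rbfox3 were at 0.015 and 0.027), 1 of 5 astrocyte genes (Aqp4, -0.11 ± 0.044, while Gfap was at -0.093 ± 0.061), 2 of 5 oligodendrocyte genes (among them Mbp, -0.12 ± 0.044) and 1 of 5 microglial genes (P2ry12, -0.17 ± 0.075, while Cx3cr1 was at -0.0093 ± 0.061). The summed levels overlapped between the diets in all 4 lists, at 4128 to 4261 and 4117 to 4233 CPM for neurons, 1149 to 1213 and 1140 to 1169 for astrocytes, 4666 to 5012 and 4325 to 4919 for oligodendrocytes, and 207.6 to 217.8 and 199.5 to 210.2 for microglia, and no marker was at 0. Left-out mice moved these counts: for neurons to 2 without PLDP mouse 17 and 0 without control mouse 2, for astrocytes to 0 without control mouse 10 or PLDP mouse 26, for oligodendrocytes to 1 without PLDP mouse 22 or 26 and 0 without control mouse 5, and for microglia to 0 without control mouse 5 or PLDP mouse 22. Astrocyte genes called lower were 2 with no filter and 2 with the cortical scaling, and microglial genes 0 in DESeq2 and 2 with the cortical scaling.

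**Figure D5:**
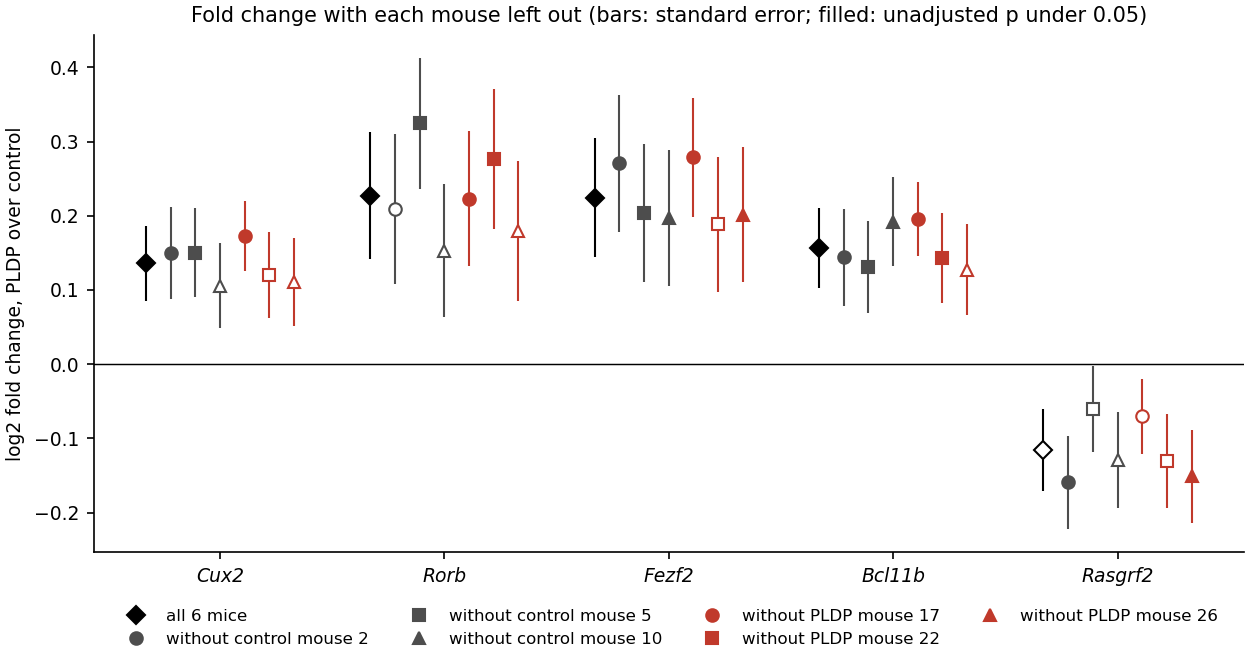
Log2 fold change, PLDP over control (vertical axis), of the 4 called members and Rasgrf2 with all 6 mice and with each mouse left out in turn; bars are standard errors and filled symbols have an unadjusted p under 0.05 in edgeR. Every value keeps its sign, and those of Fezf2 stay between 0.19 and 0.28.

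The gene most like a member across the 6 mice was sought among 14212 tested genes, by the root mean squared difference of centered log2 CPM. It was Stk4 for Cux1 (0.0086), Neurl1b for Cux2 (0.016), Tmem229a for Rasgrf2 (0.021), Traf3ip2 for Rorb (0.017), Igf1r for Fezf2 (0.029), Rap1gds1 for Tle4 (0.014), Sema3e for Foxp2 (0.012) and Exoc6b for Tbr1 (0.007). The pattern of Cux1, which hardly varied (0.041 from its own mean), was shared within 0.05 by 1794 genes, and that of Tbr1 by 956. Rorb had only 2 genes within 0.05, Fezf2 15 and Foxp2 32, and their own deviations were the largest at 0.16, 0.13 and 0.11. With 6 mice such likeness is a description only. Igf1r, the receptor of insulin-like growth factor 1, followed Fezf2 at 62.2, 57.9 and 58.3 CPM in control mice and 62.8, 70.2 and 68.7 CPM in PLDP mice.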

How the data were processed

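RNA-seq libraries of polyadenylated RNA were made with a stranded kit from the whole brains of 3 control mice and 3 PLDP mice, assigned to the diets by their labels. The authors deposited 1 file of whole-number counts per mouse, without normalization. The submitters' processing notes name cutadapt 2.9, HISAT2 2.2.0, featureCounts 2.6.0 and DESeq2 1.6.3, and the builds GRCm38 and GRCh38; the annotation, the strand setting and the treatment of shared reads are not given in the sources used here, so that values of overlapping genes are uncertain to that extent. GENCODE M21 held 54777 of the 55034 Ensembl identifiers, and 5320 numbered features carry none; all features stayed in the tests.

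Counts were analysed with R 4.3.3 and edgeR 4.0.16. Features were kept by filterByExpr (minimum count 10 and minimum total 15). TMM factors were applied, and diet alone entered the quasi-likelihood test (glmQLFit, glmQLFTest) of 18580 features. The threshold was an unadjusted p under 0.05, with Benjamini-Hochberg values over all features beside it. The study used a p under 0.05 without saying whether it was adjusted. In the edgeR test, 6 features had an adjusted p under 0.05. With 3 against 3 mice, an exact permutation test cannot go below p = 0.1. CPM are per 1000000 counts of the TMM-scaled library, and intervals are 95%. Any pair of mice of a diet differed by more than counting noise, and the labels give each library its own mouse. The labels give no batch.

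The members and lists were chosen with earlier results of these data known, and the motifs after the values were seen. From the layer, relative and partner lists the text names up to 4 genes per direction with the smallest p under 0.05, from the region and cell type lists the first 2 genes and up to 2 called per direction, and for each member the 1 gene nearest in pattern. A few genes within this rule are left out of the text. Genes named outside this rule (Bcl11a, Foxp1, Rora, Tle1 to Tle3, Slc17a7 and Hoxb8) were chosen after their values were seen. Of 169 symbols written for the members and the 16 other lists, 168 were found (Tle5 was not, its gene being listed as Aes). Foxp3, with at most 2 counts, did not pass the filter. Alternatives were no filter or a minimum of 10 counts in each mouse, factors by relative log expression, by upper quartile, by library size only or by cortical identity genes, DESeq2 1.42.0, limma 3.58.1 (voom), edgeR's likelihood ratio test and leaving out each mouse. Promoter windows (250 bases before to 50 after a start) were from RefSeq, with 8 of the 9 members matched. Python 3.11.15, pandas 2.3.3 and matplotlib 3.10.9 served for tables and plots.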

Additional observations from a re-analysis of the deposited data

How the results depend on the processing

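The 4 members called higher were also 4 with no filter, with at least 10 counts in every mouse, with relative log expression or upper-quartile factors, with library size only, and in DESeq2, limma voom and the likelihood ratio test. They were 1 when scaled to cortical identity genes and 1 to 4 when single mice were left out. Members called lower were 1 with library size only and 1 with no filter (Rasgrf2 in both), 2 with the cortical scaling, and 0 to 1 when mice were left out. Cux1 turned to -0.0378 with the cortical scaling and ranged from -0.0129 to 0.0502 when mice were left out, and Foxp2 ranged from -0.0984 to 0.063. Over all features, calls were 564 higher and 362 lower in DESeq2, 360 and 1882 with the cortical scaling, and 1314 and 1046 with no filter, which tests 36099 features; leaving out mice gave 640 to 1293 and 493 to 1072. The upper-minus-deep difference was 0.059 without Rasgrf2 and -0.058 without Rorb, and ranged from -0.024 to 0.039 when mice were left out. From summed counts it was -0.057, with every PLDP mouse below every control mouse, unlike in the mean log2 CPM. Of 480 counts of calls in lists under alternatives, 416 stayed within 1.5 times and 64 did not. The cause of these shifts was not tested. No paired analysis was possible because the mice of the diets share no numbers. Among the members, counting error at this depth was largest for Fezf2, Foxp2 and Rorb (4.61% to 5.08%). The spread between mice was above counting error in both diets for most members, called or not. It was below only for Cux1 in control mice (1.55% against 2.17%) and for Tbr1 in PLDP mice (2.95% against 3.06%). The largest spreads were those of Rorb in control mice (11.9%) and Foxp2 in PLDP mice (11.8%). For Rasgrf2 it was 6.93% in control and 5.83% in PLDP mice, against 2.09% from counting.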
